A study of Homo sapiens with 2 samples.

Results

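The SREBF1 and PEMT locus is a stretch on the short arm of human chromosome 17 in which a single PA+OA domain took the place of several mock domains. It was examined through 4 genes, SREBF1, PEMT, RAI1 and TOM1L2, of the 19974 protein-coding genes placed in all, and through every other gene that the joined domain holds. The members were chosen by the measured domain positions themselves: they are listed genes of chromosome 17 whose record midpoints lie near the place where the PA+OA list joins mock domains, so their domain classes are described here and not tested. Their midpoints run from 17548852 (PEMT) to 17907955 (TOM1L2). Just outside that range lie RASD1, with its midpoint at 17495416, and DRC3, at 17994851.

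The cells were HepG2, a human hepatocellular line, and the data are Hi-C domain lists. Hi-C records which stretches of DNA touch in the nucleus, and a topologically associating domain is a stretch within which such contacts are frequent. The PA+OA group (titled PAOA) received 120 µM palmitic acid with 240 µM oleic acid for 48 h in DMEM holding 1% fatty acid-free BSA, and the mock group (titled DMSO) received DMSO at 1 part in 1000 for 48 h. The labels leave unclear whether the mock medium also held BSA, and they name no separate cultures. Each group has 1 library, so no difference below has a replicate check, and none was tested. The lists hold positions on a grid of 40 kb and no contact values, so the read depth behind each edge is unknown, and they hold no expression value by which the cell type could be checked.

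SREBF1 encodes SREBP-1, a membrane-bound transcription factor that is carried from the endoplasmic reticulum to the Golgi, cut there, and then enters the nucleus to switch on genes of fatty acid and triglyceride synthesis. In liver it answers to insulin, to sterols and to unsaturated fatty acids, which hold back its processing. PEMT encodes the enzyme that methylates phosphatidylethanolamine to phosphatidylcholine, a liver route to the main phospholipid of membranes and lipoproteins. RAI1 encodes a chromatin-associated nuclear protein, and loss of 1 copy of it underlies Smith-Magenis syndrome. TOM1L2 encodes an adaptor of endosomal sorting.

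An intron of SREBF1 carries MIR33B, whose product represses genes of cholesterol export and fatty acid oxidation. The microRNA gene MIR6777 lies beside it, and MIR6778 lies within the record of SHMT1. These 3 hairpins were the only microRNA records in the joined domain. The mature sequences (RefSeq, GRCh38.p14) are shown because these regulators share every domain change of SREBF1, with miR-33a-5p of the SREBF2 locus on chromosome 22 for comparison. Capitals mark the seed, bases 2 to 8.
hsa-miR-33b-5p: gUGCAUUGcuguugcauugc
hsa-miR-33a-5p: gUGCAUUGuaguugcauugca
hsa-miR-6777-5p: aCGGGGAGucaggcaguggugga
hsa-miR-6778-5p: aGUGGGAGgacaggaggcaggu

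The miR-33b-5p and miR-33a-5p sequences share their seed and are identical at 18 of the 20 positions compared, counted from the 5′ end, with the differences C9U and U10A (miR-33b base first). No other mature miRNA of the 2545 in the table carries that seed. The miR-6777-5p and miR-6778-5p seeds differ from it and from each other.

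The sequences before the start sites of SREBF1, RAI1 and PEMT follow, as the promoters on either side of the domain edge that both lists place between PEMT and RAI1. Each line gives the 250 bases before the gene's outermost start site in the RefSeq promoter table (GRCh38.p14), written 5′ to 3′ on the gene's strand. Capitals mark the GC box GGGCGG on either strand and, in RAI1, also the letters AGGGGGC.
SREBF1, chr17:17836987-17837236, minus strand: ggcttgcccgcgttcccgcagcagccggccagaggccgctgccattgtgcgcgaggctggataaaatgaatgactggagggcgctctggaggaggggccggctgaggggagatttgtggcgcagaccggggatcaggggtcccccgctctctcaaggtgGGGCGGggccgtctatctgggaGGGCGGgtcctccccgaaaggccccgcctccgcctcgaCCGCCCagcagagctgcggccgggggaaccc
RAI1, chr17:17681208-17681457, plus strand: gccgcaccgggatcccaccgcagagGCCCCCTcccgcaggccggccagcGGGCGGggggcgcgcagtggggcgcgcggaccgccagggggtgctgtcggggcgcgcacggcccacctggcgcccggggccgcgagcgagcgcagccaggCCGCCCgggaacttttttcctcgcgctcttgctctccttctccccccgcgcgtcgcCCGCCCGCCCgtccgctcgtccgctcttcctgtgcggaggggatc
PEMT, chr17:17591709-17591958, minus strand: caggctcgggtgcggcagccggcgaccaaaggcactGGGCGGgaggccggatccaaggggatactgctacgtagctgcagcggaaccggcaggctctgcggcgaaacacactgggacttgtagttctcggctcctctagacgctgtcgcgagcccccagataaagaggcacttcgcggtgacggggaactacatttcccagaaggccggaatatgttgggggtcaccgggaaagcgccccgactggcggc

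The GC box is a binding motif of SP1-type factors. The SREBF1 stretch held it at 3 places, RAI1 at 4, TOM1L2 at 3 and PEMT at 1. At least 1 such box stood in 42.6% of all 35116 promoter stretches of that length, searched on both strands. The AGGGGGC letters, part of the core bound by the boundary factor CTCF, occurred once in the RAI1 stretch, at 2 places in that of TOM1L2 and in 13.3% of all stretches. The sterol regulatory element TCACCCCAC was in none of the 3 stretches printed above and in 0.362% of all. The table has 1 window for SREBF1, so any further start site of that gene was not searched. PEMT has 3 windows, and the E-box CACGTG occurred only in the window of the start site at 17577496, with a share of 6.34% over all stretches. TOM1L2 held the CCAAT box at 3 places, against a share of 32.0% of all stretches holding at least 1.

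In the mock list, SREBF1 lay in a domain of 1120 kb, from 17680001 to 18800000, and in the PA+OA list it lay in a domain of 1600 kb, from 17680001 to 19280000. The lower edge stood in the same bin in both lists, and the upper edge moved outward by 480 kb. RAI1 and TOM1L2 lay in these same domains in each list. PEMT did not. Its domain ran from 17240001 to 17680000, 440 kb, in both lists, and the edge at 17680000 separated it from the other 3 members with and without the fatty acids. The pairing of SREBF1 with PEMT in a joined domain therefore does not appear in these lists, although their start sites are only 245.3 kb apart.

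**Figure D1:**
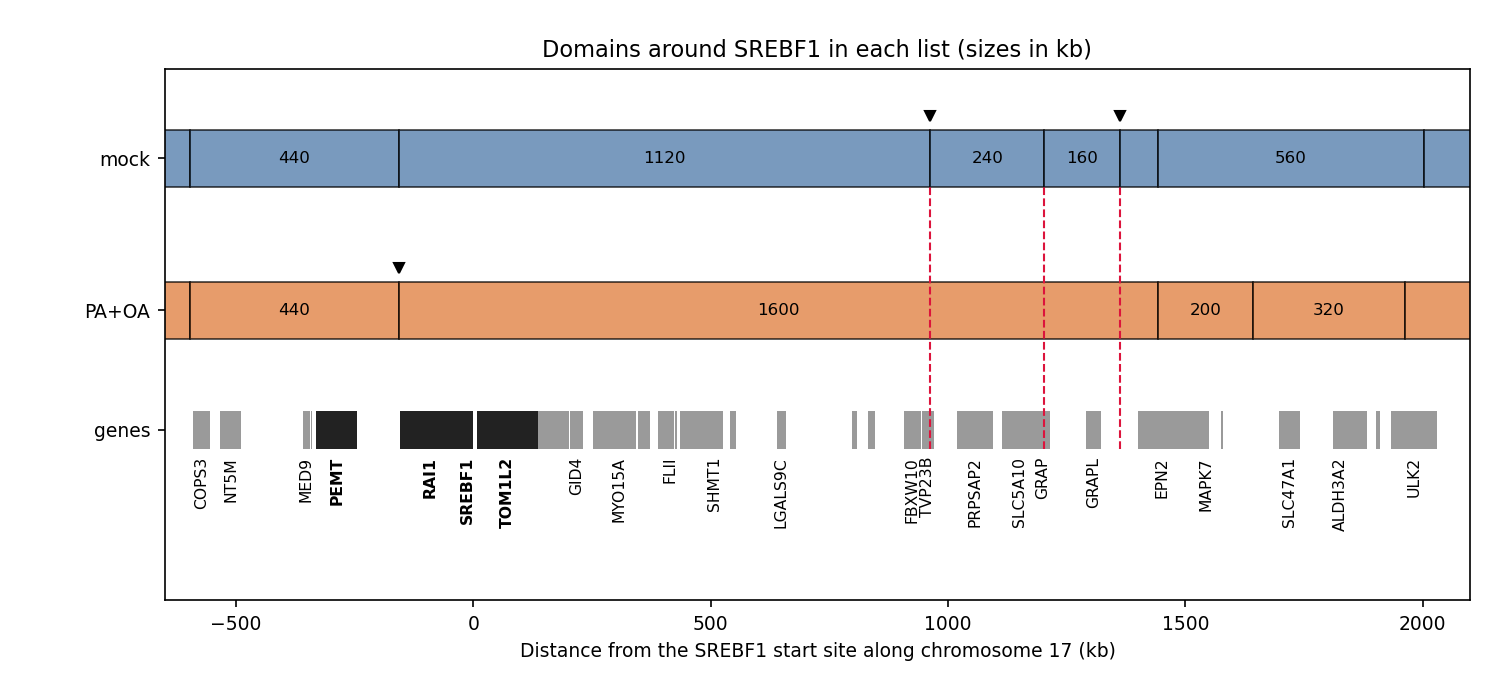
The map shows listed domains of the mock list (blue) and the PA+OA list (orange) by their distance in kb from the SREBF1 start site, with protein-coding gene records in grey and the 4 members in black. Numbers are domain sizes in kb, triangles are entries of zero length, and red dashed lines are the 3 mock edges with no PA+OA edge within 1 bin; the 1120, 240, 160 and 80 kb mock domains fill the 1600 kb PA+OA domain, while the 440 kb domain of PEMT is the same in both.

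The PA+OA domain filled exactly the span of 4 mock domains, of 1120, 240, 160 and 80 kb. The mock list also holds 2 entries of zero length inside it, at 18800000 and 19200000, so that 6 mock entries were joined in all. The PA+OA list holds 1 entry of zero length at the lower edge, 17680000. What such entries mean is not given in the sources used here. Edges within 1 bin of 40 kb of each other counted as shared. A mock domain counted as joined where a PA+OA domain with shared outer edges ran across one of its edges. By these rules 3 of the 4 members lay in a joined mock domain, beside 19.1% of all protein-coding genes, and this count follows from how the members were chosen. PEMT lay in a kept domain, with both edges shared and none inside, as did 40.5% of all protein-coding genes.

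Both outer edges of the join, 17680000 and 19280000, were in the same bin in both lists. So were the edges on the PEMT side at 15520000, 15800000 and 17240000. The edge at 17240000 lay 2.67 kb beyond FLCN, the folliculin tumour suppressor gene, and 6.62 kb before COPS3. That at 17680000 lay 87.9 kb past the end of the PEMT record and 1.46 kb before the RAI1 start site. Distances shorter than a bin are finer than the lists resolve, so on which side of this edge the RAI1 start site lies is not settled, while the midpoint of RAI1 lies more than 1 bin inside. The upper edge of the join, 19280000, lay inside the record of EPN2, an endocytosis adaptor gene, in both lists.

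The 3 mock edges that the PA+OA list lacks were at 18800000, 19040000 and 19200000. They were 480, 240 and 80 kb from the nearest PA+OA edge. Over the genome, 28.7% of mock boundaries had no PA+OA boundary within 1 bin. The first lay inside TVP23B, a Golgi membrane protein gene, 18.8 kb past its lower end. The second lay inside GRAP, which encodes an adaptor of receptor signalling, 11.4 kb before its upper end. The third lay between GRAPL and EPN2, 40.8 kb and 37.4 kb from them. Measured from the SREBF1 start site, these edges were 963.0, 1203.0 and 1363.0 kb away, whereas the edge shared with PEMT's domain was 157.0 kb away. All 3 lay on the far side of SREBF1 from PEMT.

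The members were already neighbours within their mock domain. The records of RAI1 and SREBF1 run towards each other and overlap by 120 bases, and 6.52 kb separate SREBF1 from TOM1L2. The start sites of TOM1L2 and of DRC3, a gene of the ciliary dynein regulatory complex, are 0.413 kb apart and run in opposite directions. For SREBF1, RAI1 and TOM1L2 the nearest edge by record midpoint was the same in both lists, 17680000, at 144.2, 66.5 and 228.0 kb. The distance of these members to the closest listed edge was therefore the same in both lists. PEMT's midpoint was 131.1 kb from the same edge, on its other side, in both lists.

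The joined domain held 26 protein-coding genes, of which 21 came from the mock domain of SREBF1. Besides RAI1, SREBF1 and TOM1L2, genes of metabolism and mitochondria among these are ATPAF2, which assembles the ATP synthase, MIEF2, a factor of mitochondrial fission, and SHMT1, the cytosolic serine hydroxymethyltransferase of the folate cycle. GID4, which encodes a substrate receptor of a ubiquitin ligase, ALKBH5, an RNA demethylase gene, and TOP3A, a topoisomerase gene, lie there too. SMCR8 encodes an autophagy protein, LLGL1 a cell polarity protein, FLII an actin-binding coactivator, DRG2 a GTPase and MYO15A a myosin of hair cells. The remaining genes are DRC3, EVPLL, the galectin gene LGALS9C, TBC1D28, FOXO3B, the F-box gene FBXW10 and TVP23B. All 21 shared 1 domain in each list, and their number of protein-coding domain partners went from 20 in the mock list to 25 in the PA+OA list.

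The 5 genes brought to them came from 2 of the smaller mock domains. The 240 kb domain, from 18800001 to 19040000, held PRPSAP2, a regulatory subunit of phosphoribosyl pyrophosphate synthesis, SLC5A10, a sodium-dependent sugar transporter gene, FAM83G and GRAP. Their partners went from 3 to 25, and their domain became 6.67-fold longer. By midpoint, the 160 kb domain, from 19040001 to 19200000, held GRAPL alone, whose partners went from 0 to 25. The GRAP midpoint lay only 3.99 kb from the edge at 19040000, and the GRAP start site lay beyond that edge. Midpoints of TVP23B and EPN2 lay 6.05 kb from 18800000 and 7.04 kb from 19280000. These distances are shorter than a bin, so on which side these genes lie is not settled. The 80 kb domain, from 19200001 to 19280000, held no midpoint of a protein-coding gene. Of 325 gene pairs in the joined domain, placed by midpoint, 216 already shared a mock domain and 109 (33.5%) did not, and SREBF1 took part in 5 of these 109. Other placements of the genes gave 83 to 135 pairs brought together. PEMT's domain held COPS3, NT5M, MED9 and RASD1 besides PEMT, each with 4 partners in both lists. None of the 5 new partners of SREBF1 is in the lists of SREBP or phosphatidylcholine genes used below. Those lists hold only 28 and 20 of the 19974 protein-coding genes, so any 5 genes would seldom include one.

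**Figure D2:**
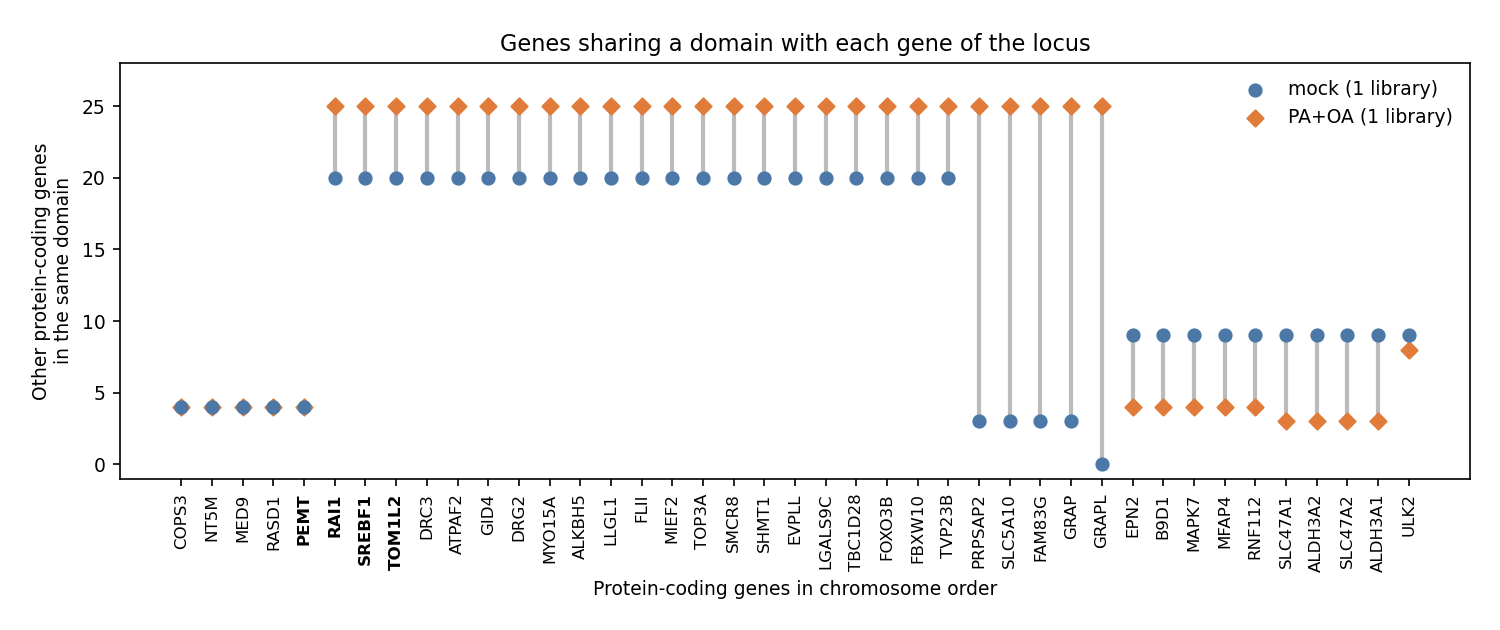
For each protein-coding gene from COPS3 to ULK2 in chromosome order, the plot gives the number of other protein-coding genes in its domain, in the mock list (blue circles) and the PA+OA list (orange diamonds), with 1 library each. The 21 genes from RAI1 to TVP23B stand at 20 and 25, the genes from PRPSAP2 to GRAPL rise from 3 or 0 to 25, and PEMT and its 4 neighbours stay at 4.

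Counting all gene records, the joined domain held 81, among them 19 long non-coding RNAs, 26 pseudogenes, 7 snoRNAs and 3 microRNAs. The mock domain of SREBF1 held 59 of them, with all 3 microRNAs. The mock 160 kb domain held 11 records for a single protein-coding gene, including all 5 SNORD3 records, which encode the snoRNA U3 of ribosomal RNA processing.

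Among the 213 PA+OA domains that join mock domains, 8.44% of the 2524 PA+OA entries, the SREBF1 domain lay near the middle in size and above it in what it joined. Its 1600 kb compare with a median of 1840 kb (quartiles 1000 and 3160 kb), and 118 were longer. It lacked 3 mock boundaries, where the median joining domain lacked 1 and 13 lacked more than 3. It held 26 protein-coding genes, where the median held 10 and 31 held more. The domain was also gene-rich, with 16.2 protein-coding genes per Mb against a median of 4.91 over joining domains and a mean of 6.53 over the mock list. Of all mock entries, 564 (21.1%) were joined.

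For SREBF1 itself the join was a modest one. The largest of its mock domains, its own, made up 70.0% of the joined length (median over joining domains 64.3%). Its domain grew 1.43-fold, whereas the 3818 protein-coding genes in joined mock domains had a median ratio of 2.33 (quartiles 1.49 and 4.76), and 805 of them (21.1%) had a lower ratio than SREBF1. The share of gene pairs brought together, 33.5%, was below the median of 51.3% over the 196 joining domains with at least 1 gene pair. On chromosome 17, with 86 mock and 85 PA+OA entries, 5 domains joined mock domains, and this one was second both in length and in genes. On that chromosome 25.6% of 82 mock boundaries had no PA+OA counterpart.

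**Figure D3:**
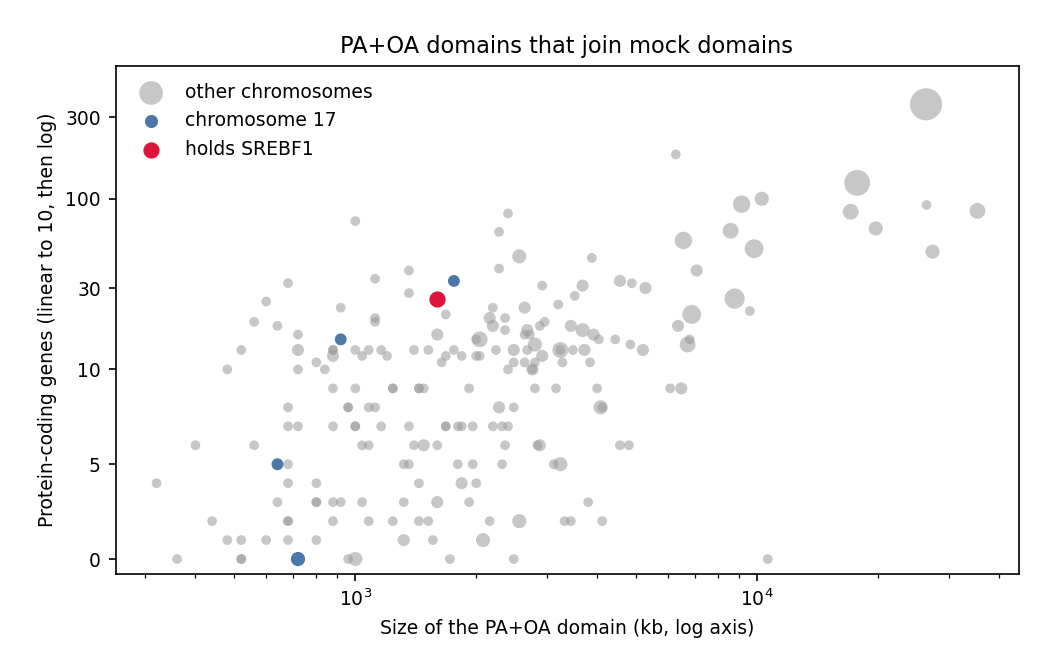
Each point is a PA+OA domain that joins mock domains, by its size in kb (log axis) and its number of protein-coding genes (axis linear up to 10 and log above), with the point area growing with the number of mock boundaries it lacks. The domain that holds SREBF1 (red) has 1600 kb, 26 genes and 3 such boundaries, and the other 4 joining domains of chromosome 17 are in blue.

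The upper part of the stretch that was joined to the SREBF1 domain holds near-identical sequence. GRAP and GRAPL, which lay on opposite sides of the mock edge at 19040000 by their midpoints, have the same 250 bases before their start sites. The lines give both stretches (RefSeq promoter table, GRCh38.p14, 5′ to 3′ on the gene's strand), and capitals would mark differing letters, of which there are 0.
GRAP, chr17:19046958-19047207, minus strand: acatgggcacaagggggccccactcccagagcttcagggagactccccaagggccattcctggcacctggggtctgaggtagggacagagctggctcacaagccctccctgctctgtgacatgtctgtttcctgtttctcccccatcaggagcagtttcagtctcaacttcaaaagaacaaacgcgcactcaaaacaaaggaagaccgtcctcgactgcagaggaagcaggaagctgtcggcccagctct
GRAPL, chr17:19127339-19127588, plus strand: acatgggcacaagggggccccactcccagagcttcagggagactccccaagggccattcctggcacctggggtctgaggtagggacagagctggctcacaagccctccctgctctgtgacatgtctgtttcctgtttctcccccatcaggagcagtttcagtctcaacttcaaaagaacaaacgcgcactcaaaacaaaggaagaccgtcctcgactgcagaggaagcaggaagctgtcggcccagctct

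Other records there share family names and have equal or similar lengths, but their sequences were not compared. The 5 SNORD3 records measure 217 bases each, KYNUP1 and KYNUP2 measure 1553 bases each, and KYNUP3 beyond the edge at 19200000 measures 1547. As a wider measure, each promoter window of 300 bases was broken into words of 31 letters, and the share of its words found in the most similar window of another gene elsewhere was taken, on either strand. A window with at least 50% was called copied. In the 3 smaller joined mock domains 5 of 15 windows (33.3%) were copied, against 1.99% of all 35116 windows. None of the 8 windows of the 240 kb domain was among them, and the 80 kb domain had 1 of 3. The GRAP start site itself lies beyond the edge at 19040000, so its window counts with the 160 kb domain, where 4 of 4 windows were copied. The 5 copied windows match one another and are not separate cases. GRAP and GRAPL match each other, and LOC102724624 and LOC388436 are each most similar to GRAPL-AS1. Some genes, such as PRPSAP2, have several of the 15 windows.

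In the mock domain of SREBF1, 2 of 32 windows (6.25%) were copied, and both lie among the 8 windows from LGALS9C to the upper edge. LGALS9C shared 81.9% of its words with LGALS9B and FBXW10 86.7% with FBXW10B, so that neither reaches a stricter cutoff of 90%. Below the cutoff of 50%, TBC1D28 shared 44.8% with TBC1D26 and TVP23B at most 26.3% with the TVP23C-CDRT4 window. None of these partners lies in the joined domain. Of the 24 windows between the lower edge and LGALS9C, where the members lie, 0 were copied, and the lncRNA gene LOC105371569 had 39.3%. In PEMT's domain 0 of 8 were copied.

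**Figure D4:**
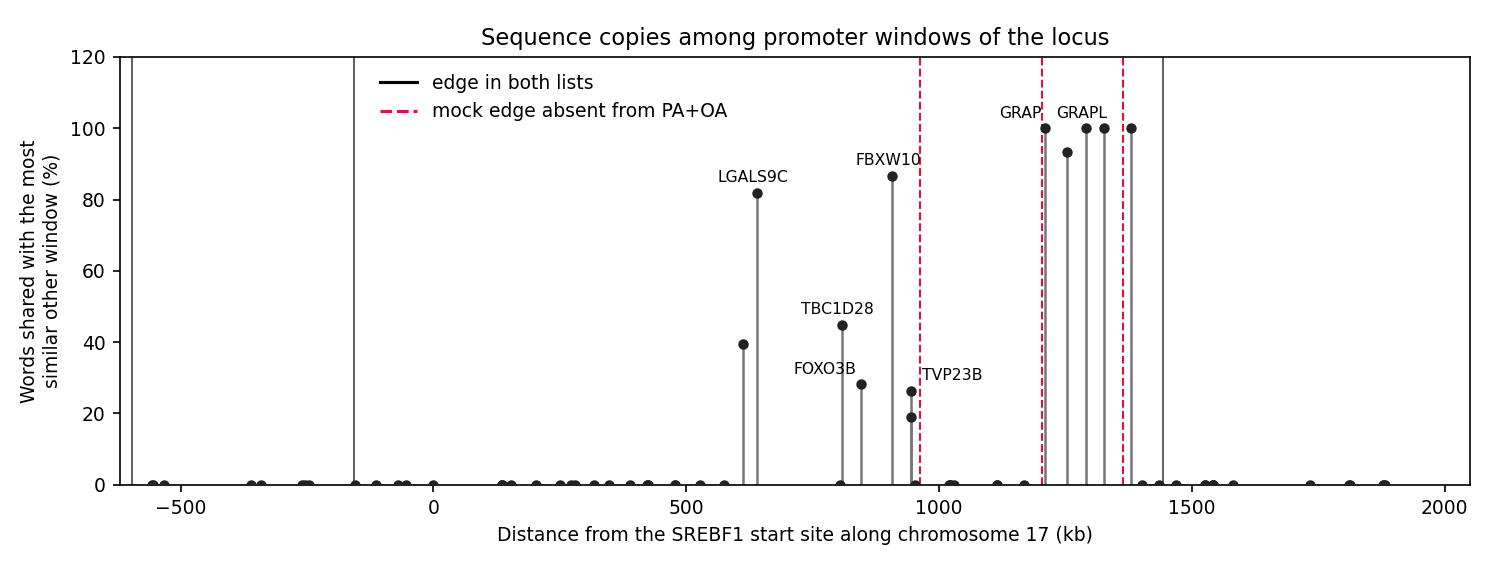
Each point is a promoter window of the locus, by the distance in kb of its start site from that of SREBF1 and by the percentage of its 31-letter words found in the most similar window of another gene. Black lines are edges in both lists and red dashed lines are the 3 mock edges absent from the PA+OA list; the windows of the members are at 0%, and those of GRAP and GRAPL, between the upper 2 of these edges, are at 100%.

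Over the whole mock list, 29 of 68 boundaries (42.6%, Wilson 95% interval 31.6 to 54.5%) within 50 kb of a copied window had no PA+OA boundary within 1 bin. Where windows lay that near but none was copied, 350 of 1465 (23.9%, 21.8 to 26.1%) had none. Boundaries with no promoter window within 50 kb are in neither count. Over all 2519 mock boundaries 722 (28.7%) had none, so those left out lacked a counterpart more often than the 1465. The 29 include the edges at 19040000 and 19200000 of this locus. The intervals cover counting error only, and boundaries of a list are not replicates. Of the 3 lost edges at the locus, 19040000 lay 6.96 kb from the copied GRAP window and 19200000 lay 15.6 kb from that of LOC388436. The edge at 18800000, which bounded the SREBF1 domain, had no copied window within 50 kb, the closest being that of FBXW10 at 55.9 kb. Reads from identical copies cannot be placed by sequence, and the part of this in the loss of the 3 edges was not tested. The edge at 15520000 lay in the same bin in both lists. It is inside the TVP23C-CDRT4 record, whose window shares at most 26.3% of the words of a TVP23B window, below the cutoff for a copy. Entries of zero length moved with lost edges as well. Of 130 mock boundaries that carry such an entry, 53 (40.8%) had no PA+OA counterpart, against 669 of 2389 (28%) of the others, and 2 of the 3 lost edges at the locus carry one. Their part was not tested either.

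The share of SREBP pathway genes in joined domains was near that of all genes. From a list of 28 genes of SREBP processing and its targets, 5 (17.9%) lay in joined mock domains, beside the 19.1% of all protein-coding genes, and 14 (50%) lay in kept domains, beside 40.5%. Among the joined genes were SREBF1, SREBF2 and MBTPS1. SREBF1 is in this count by the choice of the locus, so the share is not independent of that choice. Of the processing machinery, SCAP, the sterol-sensing escort of SREBP, lay in a domain of 880 kb with equal coordinates in both lists. MBTPS1, the Golgi protease that makes the first cut, had a mock domain of 1720 kb and a PA+OA domain of 3520 kb. For MBTPS2, the protease of the cut that follows, these were 16320 and 17800 kb. INSIG1, which retains SCAP in the endoplasmic reticulum, had a mock domain of 3200 kb, split in the PA+OA list so that the gene lay in 1320 kb.

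Examples of lipid synthesis genes from this list lay in domains that were equal in both lists and in domains that differed. FASN (fatty acid synthase), SCD (stearoyl-CoA desaturase), ELOVL6 (an elongase), GPAM (first step of triglyceride synthesis) and FADS1 with FADS2 (desaturases that share 1 domain) were in domains of equal coordinates, of 1000, 240, 1120, 1520 and 320 kb. ACACA, the gene of cytosolic acetyl-CoA carboxylase, and ACLY, that of ATP citrate lyase, lay in shorter domains with PA+OA. ACACA had 1120 kb in mock and 800 kb in PA+OA, and ACLY had 3680 and 1800 kb. ACSS2, an acetyl-CoA synthetase gene, had 680 and 560 kb, and LPIN1, a phosphatidate phosphatase gene, had 4000 and 1200 kb. In all, 13 of the 28 genes had equal coordinates in both lists (46.4%), beside 33.3% of all protein-coding genes.

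SREBF2, the paralogue that drives cholesterol synthesis, also lay in a joined domain and also holds a miR-33 gene. Its mock domain, from 41800001 to 43960000 on chromosome 22, measured 2160 kb and its PA+OA domain 26360 kb, a ratio of 12.2 where SREBF1 had 1.43. Its protein-coding partners went from 33 to 357. That PA+OA domain is the extreme of the 213 joining domains, with the most mock boundaries lacking (19, median 1) and the most protein-coding genes (358, median 10). The change is therefore shared by all these genes and is not particular to SREBF2.

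For phosphatidylcholine synthesis, 5 of 20 genes (25%) lay in joined mock domains, beside 19.1% of all protein-coding genes, and 6 (30%) in kept ones, beside 40.5%. PEMT is among the kept genes and, as a member, was chosen by the domain positions at the locus. With edges required to match exactly, at a tolerance of 0 bins, 3 of the 20 were joined. The joined genes were BHMT, PTDSS2, PISD, LPCAT2 and LPCAT4. Of the methylation branch that feeds PEMT, MAT1A, which makes S-adenosylmethionine in liver, and GNMT, which consumes it, lay in domains of 280 kb each with equal coordinates. MAT2A, the form of that synthetase found outside liver as well, had a split mock domain of 840 kb and lay in 280 kb with PA+OA. AHCY, which clears the product S-adenosylhomocysteine, had a mock domain of 160 kb and a PA+OA domain of 320 kb. PISD, which makes phosphatidylethanolamine, the substrate of PEMT, had a mock domain of 3960 kb and a PA+OA domain of 26360 kb, the one that also holds SREBF2. Of the other route, from choline, CHKA had an equal domain of 240 kb, while PCYT1A, its rate-limiting step, had a mock domain of 1600 kb and a PA+OA domain of 480 kb. CHKB lay outside the listed domains of the mock list.

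**Figure D5:**
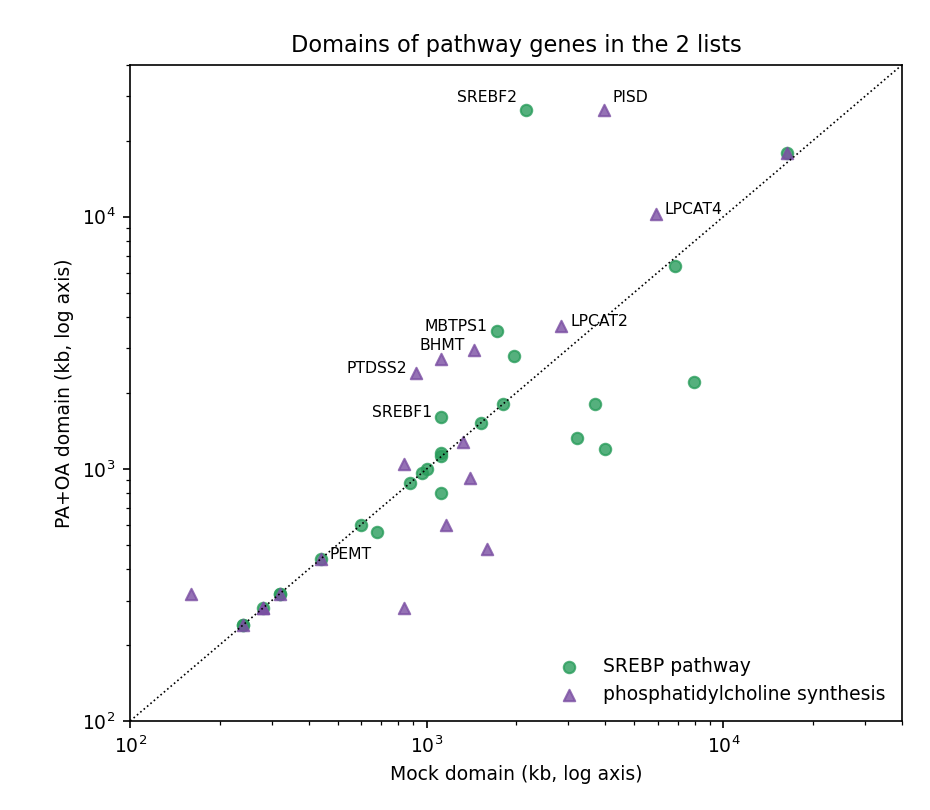
The plot sets the size of the domain that holds a pathway gene in the mock list against that in the PA+OA list, for the genes reported (kb, both axes log), with green circles for the SREBP pathway and purple triangles for phosphatidylcholine synthesis. The dotted line marks equal size; PEMT lies on it at 440 kb, SREBF1 above it at 1120 and 1600 kb, and the genes of joined mock domains that the text names are labelled.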

How the data were processed

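HepG2 chromatin was profiled by Hi-C in 1 mock and 1 PA+OA library, grouped by title. The authors' deposited files list domains by chromosome, start and end. The build was hg38 and the tools named are FastQC and HiC-Pro, per the submitters' processing notes. For the domain caller, normalization and depth, nothing is given in the sources used here. Domains followed each other without gaps, on a 40 kb grid. Entries of zero length were kept.

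Boundaries were edges merged within 1 bin. Domain classes used the listed edges, with a tolerance of 1 bin. Classes were checked on lists made with known joins and splits. The outer edges of those lists matched exactly and no entry had zero length, so the tolerance and the zero-length entries were not checked. Genes (RefSeq, GRCh38.p14, 19974 protein-coding on the listed chromosomes) were placed by record midpoint. Start sites came from the RefSeq promoter table, which has one for 15812 of these genes. With 1 library per group no test was made. Shares have Wilson 95% intervals where given. The members, lists, motifs and alternatives were chosen with earlier results of these data known, and the copy measure after seeing the domain lists. Named genes were the members, every protein-coding gene and microRNA gene of their domains, the nearest genes to edges there, and the pathway genes in joined domains. Some single genes of the SREBP list are counted but not reported here. Other pathway genes are examples, chosen after their values were seen. Python 3.11.15, pandas 2.3.3 and scipy 1.17.1 were used.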

Additional observations from a re-analysis of the deposited data

How the results depend on the processing

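SREBF1, RAI1 and TOM1L2 were in a joined mock domain and PEMT in a kept one under every alternative run, with tolerances of 0, 2 or 3 bins or 100 kb, without entries of zero length, with edges not merged and, added after seeing the data, with classes from merged edges. Not all of these are separate checks. Leaving edges unmerged does not enter the classes, and 100 kb amounts to 2 bins on this grid. At the locus, the entries of zero length lie on edges that neighbouring entries also give. The number of joined mock entries was 6, or 4 without entries of zero length and at 2 bins, 3 bins and 100 kb. At those 3 wider tolerances the edge at 19200000 counts as shared and 2 lost edges remain. The joined domain held 25 to 27 protein-coding genes over the placements by either end of the record, by whole records and, added later, by start site. Over the same placements the pairs brought together numbered 83 to 135, where the midpoints gave 109. EPN2 was added by lower end or start site, and GID4 and EVPLL, which have no listed start site, were dropped by the latter. With all gene records it held 81, with 1443 pairs brought together. At a tolerance of 0 bins, 6.50% of PA+OA domains joined mock domains, 16.6% of mock entries and 15.3% of protein-coding genes were joined, and so were 3 genes of phosphatidylcholine synthesis. The gene share was 19.8% at 2 bins and at 100 kb. At 3 bins the shares were 23.3% of mock entries and 21.7% of genes. Of 135 alternative values, 124 stayed within their interval or within 1.5 times, and 11 did not. The 135 include values that such settings could not change or that repeat another setting. At a stricter cutoff of 90%, also added later, 5 windows of the 3 smaller joined domains were copied, as at 50%, while the copied windows of the SREBF1 mock domain went from 2 to 0 and the share of all windows from 1.99% to 0.860%. No paired analysis was possible because each group has 1 library. With 1 library per group and no contact values, neither the spread between cultures nor the strength of an edge can be given.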

Other observations

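Just beyond the joined domain the PA+OA list held an edge that the mock list lacks. The mock domain from 19280001 to 19840000, 560 kb with 10 protein-coding genes, had within it a PA+OA edge at 19480000, which is 200 kb from the nearest mock edge and 53.9 kb before SLC47A1. The part of 200 kb held EPN2, B9D1, MAPK7, MFAP4 and RNF112, where MAPK7 encodes a mitogen-activated kinase. The part of 320 kb held SLC47A1 and SLC47A2, which encode exporters of metformin and other cations, and the aldehyde dehydrogenase genes ALDH3A2, which acts on fatty aldehydes, and ALDH3A1. Each of the 4 latter genes had 9 protein-coding domain partners with mock and 3 with PA+OA. The upper edge, inside the autophagy kinase gene ULK2, differed by 1 bin, with 19840000 for mock and 19800000 for PA+OA, which placed the midpoint of ULK2 in the next domain. None of the 13 promoter windows between 19280000 and 19840000 was copied.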
